A study of Mus musculus with 14 samples.

Results

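Collagen is modified, folded and crosslinked by a small set of enzymes and a chaperone, and 10 genes of that set were followed in mouse bone marrow. They were taken by symbol and comprised the lysyl oxidases Lox, Loxl1, Loxl2 and Loxl3, the lysyl hydroxylases Plod1 and Plod2, the prolyl 4-hydroxylase subunits P4ha1 and P4ha2, the prolyl 3-hydroxylase P3h1 and the collagen chaperone Serpinh1. All 10 were found among the 23441 genes of the deposited count matrix, and all 10 were among the 17494 genes that passed the filter on low counts. The read count of a member in a sample ran from 34, for P4ha2 in a BMAd-Pnpla2-/- AL sample, to 6853, for Loxl1 in a BMAd-Pnpla2+/+ CR sample.

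In the endoplasmic reticulum, prolyl 4-hydroxylase adds the hydroxyl groups that keep the collagen helix stable, P3h1 modifies a few further prolines, and lysyl hydroxylases modify lysines that later take part in crosslinks. The chaperone encoded by Serpinh1, also called HSP47, binds the folded procollagen on its way out of the cell. Outside the cell, lysyl oxidases, which need copper, convert lysines to reactive aldehydes from which the crosslinks of collagen and elastin form. In bone and its marrow, osteoblasts and stromal cells are the main makers of fibrillar collagen, and adipocytes lay down a matrix of their own.

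The RNA came from marrow flushed out of the distal tibia of 24-week-old males on a C57BL6/SJL background, each sample pooled from a pair of animals. All mice, controls included, carried Osterix-FLPo and an Adipoq-Cre that FLPo switches on (FAC), a combination meant to confine Cre to bone marrow adipocytes (BMAds). The Cre sits in the Adipoq gene itself, is expressed at a low level and lowers adiponectin in every mouse that carries it. BMAd-Pnpla2+/+ littermates lacked floxed alleles of Pnpla2, the gene of adipose triglyceride lipase, and were sampled 4 times on ad libitum feeding (AL) and 4 times after 6 weeks of 30% caloric restriction (CR). BMAd-Pnpla2-/- mice, whose BMAds lose Pnpla2 to Cre, were sampled 3 times on each diet. Because whole marrow was measured, fewer cells of a type and less RNA per cell cannot be told apart in any value below. Pnpla2 stood at 219 ± 58.4 CPM (read counts scaled by TMM library size; SD, n = 4) in BMAd-Pnpla2+/+ AL, 840 ± 241 (n = 4) in BMAd-Pnpla2+/+ CR, 148 ± 21.7 (n = 3) in BMAd-Pnpla2-/- AL and 224 ± 45.5 (n = 3) in BMAd-Pnpla2-/- CR samples, and within each diet every BMAd-Pnpla2-/- sample was below every BMAd-Pnpla2+/+ sample. By edgeR's quasi-likelihood test, adjusted over all genes (padj), the log2 difference between genotypes was -0.57 under AL (padj = 1.0) and -1.91 ± 0.26 (SE) under CR (padj = 0.0387).

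Between 18658806 and 21339006 reads per sample were counted without regard to strand on the genes of the matrix. These unstranded counts were used throughout because the libraries were not of one kind. The 3 BMAd-Pnpla2-/- CR libraries had 50.1% to 50.5% of their reads on the first strand, whereas the other 11 had 4.30% to 4.62%. In every comparison of BMAd-Pnpla2-/- CR with another group, library type and group cannot be told apart. Of the members, Loxl3 shares 535 exon bases with Htra2 on the opposite strand, and 47.2% of its reads in the 11 stranded libraries lay on the first strand. Its unstranded count was 95.4% of its reverse-strand count in those libraries, and its log2 fold change with CR in BMAd-Pnpla2+/+ mice was 0.25 by reverse-strand counts, beside 0.26 by unstranded ones. Plod2, Loxl2 and Lox share 346, 301 and 30 exon bases with antisense transcripts, and the same share was 91.1%, 101% and 94.0% for them. The other members share no exon bases with a gene on the opposite strand.

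Levels of different genes were compared as CPM per kilobase of exon. In BMAd-Pnpla2+/+ AL marrow Serpinh1 (30.0 ± 6.08; SD, n = 4) and Loxl1 (28.4 ± 3.20) were the most abundant members and did not differ beyond their spread. Lox (12.3 ± 4.91) and Plod1 (9.60 ± 1.58) followed and overlapped each other. Loxl3 (5.63 ± 0.0535), P4ha1 (5.56 ± 0.465) and P3h1 (5.28 ± 0.319) formed the next level, with neighbours within a standard deviation of each other. Loxl2 (2.49 ± 0.560) lay below them, and Plod2 (0.845 ± 0.233) and P4ha2 (0.477 ± 0.0975) were the scarcest. In BMAd-Pnpla2+/+ CR marrow Loxl1 (57.6 ± 27.8), Serpinh1 (43.4 ± 17.4) and Lox (43.0 ± 17.2) shared the top of the order, none beyond the spread of the next.

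What CR did to these genes in mice with an intact Pnpla2 was asked first. CR raised 5 of the 10 members past both criteria used by the study, padj under 0.05 (edgeR's quasi-likelihood test, Benjamini-Hochberg) together with a log2 fold change beyond 1 in size. They were Lox, P4ha2, Plod2, Loxl1 and Loxl2, 3.48-fold, 2.35-fold, 2.32-fold, 2.03-fold and 2.01-fold higher than in AL. Among all genes tested, 9.19% passed both criteria and 7.26% did so upwards. With padj alone, 7 members were higher, Plod1 and P3h1 joining by 1.38-fold and 1.41-fold, against 15% of all genes higher. The median log2 fold change of the members was 0.77, beside 0.00 for all genes tested. In 4 members, Lox, Loxl2, Plod2 and P4ha2, every CR sample was above every AL sample, as in 12.3% of all genes. P4ha1 alone pointed downwards, and its 4 CR samples lay below its 4 AL samples, as in 10.4% of all genes.

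**Figure D1:**
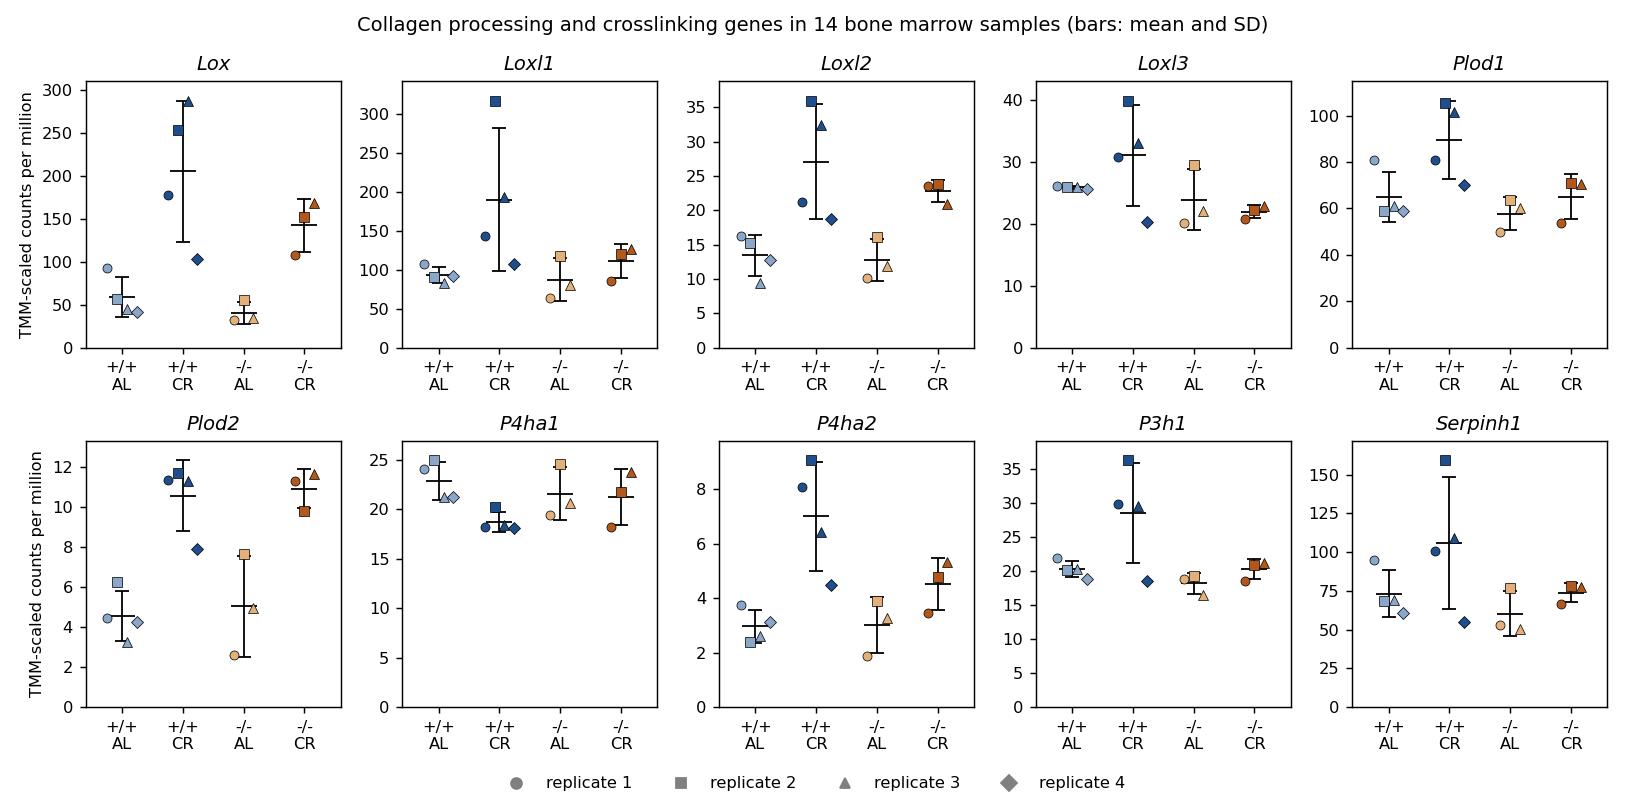
TMM-scaled CPM of the 10 members in each of the 14 samples, by genotype and diet; symbols mark replicate numbers, long bars the mean and error bars the SD. Lox in BMAd-Pnpla2+/+ samples ran from 41.2 to 92.9 in AL and from 103 to 287 in CR, while P4ha1 ran from 21.2 to 24.9 in AL and from 18.1 to 20.2 in CR.

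Prolyl 4-hydroxylase is built from a catalytic alpha subunit, encoded by P4ha1 or P4ha2, and a beta subunit, P4hb, that also works as a protein disulphide isomerase. The RefSeq windows of 300 bases around the starts of both alpha subunit genes (GRCm38.p6, the build mm10; 250 bases before the start and 50 after, both on the plus strand) are shown because CR raised P4ha2 and left P4ha1 short of the threshold, below its AL level. RefSeq's start of P4ha2 lies inside the gene as GENCODE draws it. P4ha1 lies at chr10:59323296-59373304 and its window at chr10:59323046-59323345. P4ha2 lies at chr11:54100095-54131665 and its window at chr11:54100674-54100973. Capitals mark ACGTG, the core that hypoxia-inducible factors bind, read on either strand, so that CACGT is a match on the opposite strand. The core was found in 19.6% of all 32851 windows of this length, and it overlaps the E-box core that other factors bind.
P4ha1: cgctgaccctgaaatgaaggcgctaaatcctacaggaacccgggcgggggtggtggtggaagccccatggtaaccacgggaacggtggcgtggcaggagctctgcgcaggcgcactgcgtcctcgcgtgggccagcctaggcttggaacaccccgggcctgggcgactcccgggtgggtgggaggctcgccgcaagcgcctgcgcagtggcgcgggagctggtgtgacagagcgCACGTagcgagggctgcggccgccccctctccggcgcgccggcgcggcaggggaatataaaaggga
P4ha2: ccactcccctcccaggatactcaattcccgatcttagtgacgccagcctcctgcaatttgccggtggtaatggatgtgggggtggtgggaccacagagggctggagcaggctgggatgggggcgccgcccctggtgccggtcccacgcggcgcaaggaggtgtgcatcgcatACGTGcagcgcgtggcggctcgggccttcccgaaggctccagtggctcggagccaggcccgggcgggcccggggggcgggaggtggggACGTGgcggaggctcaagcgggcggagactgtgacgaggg
The P4ha1 window held 1 match, which begins 16 bases before the start, and the P4ha2 window held 2, which begin 78 bases before and 10 bases after it. These matches describe the letters of the windows and are not binding sites.

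P4ha2 rose with CR in BMAd-Pnpla2+/+ marrow. Its AL samples measured 3.77, 2.41, 2.61 and 3.12 CPM, and its CR samples 8.07, 9.07, 6.45 and 4.49 CPM. The groups did not overlap, and the log2 fold change was 1.24 ± 0.27 (SE; padj = 0.00704). In BMAd-Pnpla2-/- marrow P4ha2 measured 1.87, 3.90 and 3.27 CPM in AL and 3.47, 4.80 and 5.32 CPM in CR, where the groups overlapped and the difference missed the threshold (log2 fold change 0.59 ± 0.31; padj = 0.227). P4ha2 had the fewest reads of all members, with 34 to 196 per sample.

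P4ha1 did not follow P4ha2. In BMAd-Pnpla2+/+ mice its AL samples measured 24.1, 24.9, 21.2 and 21.2 CPM and its CR samples 18.2, 20.2, 18.4 and 18.1 CPM. The groups were apart, but the log2 fold change of -0.29 ± 0.11 did not pass (padj = 0.0671), and padj over the alternatives ran from 0.0377, with the deposited matrix as it stands, to 0.142. P4ha1 in BMAd-Pnpla2-/- mice measured 19.4, 24.5 and 20.6 CPM in AL and 18.1, 21.7 and 23.8 CPM in CR, with a log2 fold change of -0.02 ± 0.13 (padj = 0.930). The partner P4hb changed in neither genotype by the test (log2 fold change -0.10 ± 0.11, padj = 0.487 in control and -0.20 ± 0.12, padj = 0.296 in BMAd-Pnpla2-/- mice). P4ha3, a further alpha subunit gene, had at most 22 reads in any sample.

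The mix of alpha subunits also differed between diets. On the scale of CPM per kilobase, P4ha2 made up 7.92% ± 1.51 (SD, n = 4) of P4ha1 and P4ha2 together in BMAd-Pnpla2+/+ AL samples, from 5.99% to 9.35%, and 19.6% ± 4.13 (n = 4) in CR samples, from 14.1% to 22.9%. The share in BMAd-Pnpla2-/- mice was 8.30% ± 2.02 (n = 3) in AL and 12.3% ± 0.919 (n = 3) in CR, and again no CR sample fell within the AL range. P4ha1 remained the larger part in each of the 14 samples.

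**Figure D2:**
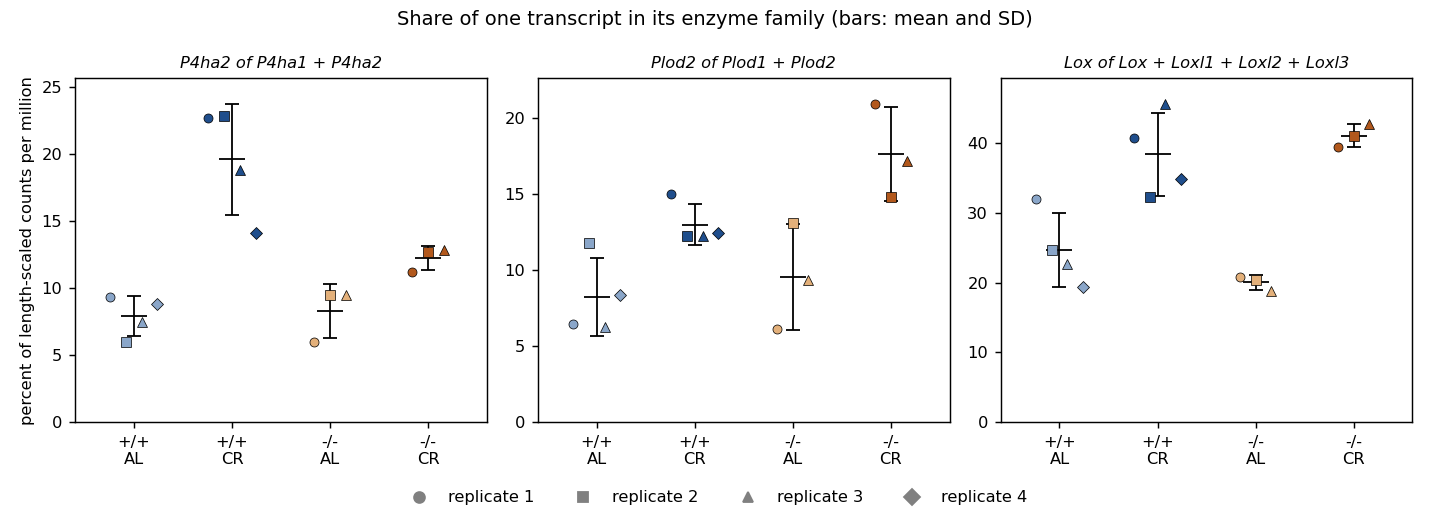
Share of P4ha2 among both alpha subunit genes, of Plod2 among Plod1 and Plod2, and of Lox among the 4 lysyl oxidases, in percent of CPM per kilobase for each sample, with the mean (long bar) and SD (error bar) of each group. In BMAd-Pnpla2+/+ samples the mean share of P4ha2 was 7.92% in AL and 19.6% in CR, and that of Lox 24.7% and 38.4%.

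Of the lysyl hydroxylases, both were higher with CR in BMAd-Pnpla2+/+ mice at padj under 0.05. Plod2 (chr9:92542223-92608428), whose product modifies the lysines of the collagen telopeptides, measured 4.45, 6.26, 3.24 and 4.28 CPM in BMAd-Pnpla2+/+ AL samples and 11.3, 11.7, 11.3 and 7.92 CPM in CR samples. The groups did not overlap (log2 fold change 1.21 ± 0.27; padj = 0.00870). BMAd-Pnpla2-/- samples measured 2.59, 7.63 and 4.93 CPM in AL and 11.3, 9.81 and 11.6 CPM in CR, again without overlap (1.11 ± 0.31; padj = 0.0379). This call was lost when any of 7 libraries was left out, namely BMAd-Pnpla2-/- AL replicates 1 and 3, all 3 BMAd-Pnpla2-/- CR replicates, BMAd-Pnpla2+/+ AL replicate 4 and BMAd-Pnpla2+/+ CR replicate 1, and padj then reached up to 0.132.

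Plod1 (chr4:147909753-147936767), which modifies lysines within the helix, moved less. Its BMAd-Pnpla2+/+ samples measured 80.9, 59.0, 61.2 and 58.7 CPM in AL and 80.7, 106, 102 and 70.1 CPM in CR. The groups overlapped through AL replicate 1, and the log2 fold change of 0.46 ± 0.15 passed at padj = 0.0391 with all samples, but in 6 of 14 fits that each left out a library, with padj up to 0.114. With BMAd Pnpla2 deleted it measured 49.6 to 63.5 CPM in AL and 53.7 to 70.8 CPM in CR (0.17 ± 0.18; padj = 0.561). Plod2 accounted for 8.20% ± 2.55 (SD, n = 4) of both genes per kilobase in BMAd-Pnpla2+/+ AL, 12.96% ± 1.353 (n = 4) in BMAd-Pnpla2+/+ CR, 9.53% ± 3.48 (n = 3) in BMAd-Pnpla2-/- AL and 17.6% ± 3.07 (n = 3) in BMAd-Pnpla2-/- CR samples.

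P3h1 (chr4:119232915-119248975) acts in a complex with Crtap and the cyclophilin Ppib. In BMAd-Pnpla2+/+ mice P3h1 measured 21.9, 20.2, 20.3 and 18.9 CPM in AL and 29.9, 36.3, 29.5 and 18.6 CPM in CR. Its CR replicate 4 was below all AL samples, the other 3 were above all of them, and the log2 fold change was 0.49 ± 0.16 (padj = 0.0351). Like Plod1, it passed in 6 of 14 fits without a library, with padj up to 0.1102. BMAd-Pnpla2-/- samples of P3h1 measured 16.5 to 19.3 CPM in AL and 18.6 to 21.3 CPM in CR (0.16 ± 0.18; padj = 0.615).

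Serpinh1 (chr7:99345376-99353239) measured 94.9, 68.3, 69.0 and 60.9 CPM in BMAd-Pnpla2+/+ AL and 101, 159, 109 and 55.1 CPM in BMAd-Pnpla2+/+ CR samples. Here too CR replicate 4 lay below every AL sample and the other 3 above. The log2 fold change of 0.53 ± 0.25 did not pass (padj = 0.132), and without CR replicate 4 it was 0.75 with padj = 0.0116. Serpinh1 in BMAd-Pnpla2-/- mice measured 50.6 to 77.1 CPM in AL and 66.6 to 77.9 CPM in CR (0.29 ± 0.29; padj = 0.545).

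Crtap was higher with CR in BMAd-Pnpla2+/+ mice (log2 fold change 0.70 ± 0.20; padj = 0.0260) and did not pass in BMAd-Pnpla2-/- mice (0.29 ± 0.24; padj = 0.460). Ppib could not be followed across library types. It measured 20.9 to 30.5 CPM in the 11 stranded libraries and 47.5 to 50.6 CPM in the 3 unstranded ones, and its unstranded count was 24.4% of its reverse-strand count in the former.

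Lox, the founding lysyl oxidase, had the largest log2 fold change of the members in both genotypes. Its BMAd-Pnpla2+/+ samples measured 92.9, 56.4, 45.4 and 41.2 CPM in AL and 178, 254, 287 and 103 CPM in CR. Its BMAd-Pnpla2-/- samples measured 32.3, 55.6 and 34.6 CPM in AL and 108, 152 and 168 CPM in CR. In neither genotype did the diets overlap. The log2 fold change was 1.80 ± 0.33 (padj = 0.00398) with Pnpla2 and 1.81 ± 0.38 (padj = 0.0145) without it in BMAds, and the difference between these 2 responses was 0.00 ± 0.49 (padj = 0.998). The call held in 14 of 14 fits without a library in BMAd-Pnpla2+/+ mice and in 11 of 14 in BMAd-Pnpla2-/- mice, where leaving out AL replicate 1, AL replicate 3 or CR replicate 3 took padj up to 0.0608.

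Loxl2 (chr14:69609068-69695834) also rose in BMAd-Pnpla2+/+ mice. It measured 16.2, 15.3, 9.45 and 12.8 CPM in AL and 21.2, 35.9, 32.3 and 18.7 CPM in CR, without overlap (log2 fold change 1.01 ± 0.22; padj = 0.00833). Its BMAd-Pnpla2-/- samples measured 10.2, 16.1 and 11.9 CPM in AL and 23.5, 23.9 and 20.98 CPM in CR. These groups were apart as well, with a log2 fold change of 0.84 ± 0.26 just outside the threshold (padj = 0.0516), and padj over the alternatives ran from 0.0255 to 0.0674. In fits that each left out a library, it passed in 4 of 14, with padj up to 0.201.

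Loxl1 (chr9:58287738-58313186), whose product acts on elastin, rose in BMAd-Pnpla2+/+ mice with wide spread. Its AL samples lay close together at 108, 90.9, 82.7 and 92.4 CPM, and its CR samples ranged over 143, 317, 193 and 107 CPM. CR replicate 4 fell within the AL range. The log2 fold change of 1.02 ± 0.28 passed (padj = 0.0219), but not without AL replicate 2, AL replicate 3, CR replicate 2 or CR replicate 3, with padj up to 0.0613. Loxl1 in BMAd-Pnpla2-/- mice measured 64.1 to 118 CPM in AL and 85.7 to 126 CPM in CR (0.34 ± 0.33; padj = 0.527).

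Loxl3 (chr6:83034173-83052562) was the oxidase with the least change. Its 4 BMAd-Pnpla2+/+ AL samples lay between 25.6 and 26.1 CPM, and its CR samples measured 30.8, 39.9, 33.1 and 20.3 CPM. The log2 fold change was 0.26 ± 0.17 (padj = 0.257) with intact Pnpla2, where leaving out CR replicate 4 brought padj to 0.0250, and -0.12 ± 0.20 (padj = 0.721) in BMAd-Pnpla2-/- mice. Among the 4 oxidases, per kilobase, Lox made up 24.7% ± 5.33 (SD, n = 4) in BMAd-Pnpla2+/+ AL, 38.4% ± 6.00 (n = 4) in BMAd-Pnpla2+/+ CR, 20.0% ± 1.07 (n = 3) in BMAd-Pnpla2-/- AL and 41.1% ± 1.67 (n = 3) in BMAd-Pnpla2-/- CR samples. The lowest CR share, 32.3%, was above the highest AL share, 31.9%, in BMAd-Pnpla2+/+ mice, and 39.4% was above 20.9% in BMAd-Pnpla2-/- mice.

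Whether mice without Pnpla2 in BMAds respond alike was asked next. CR raised 2 of 10 members past both criteria in them, Lox (3.49-fold) and Plod2 (2.16-fold), beside 3.52% of all genes in either direction and 2.59% upwards. The groups were apart upwards in 3 members, Lox, Plod2 and Loxl2, against 20.5% of all genes. The median log2 fold change of the members was 0.32, and that of all genes 0.05. Loxl1, Loxl2 and P4ha2, which were called in BMAd-Pnpla2+/+ mice, were not called here, but the tests of the difference between genotypes did not pass either.

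**Figure D3:**
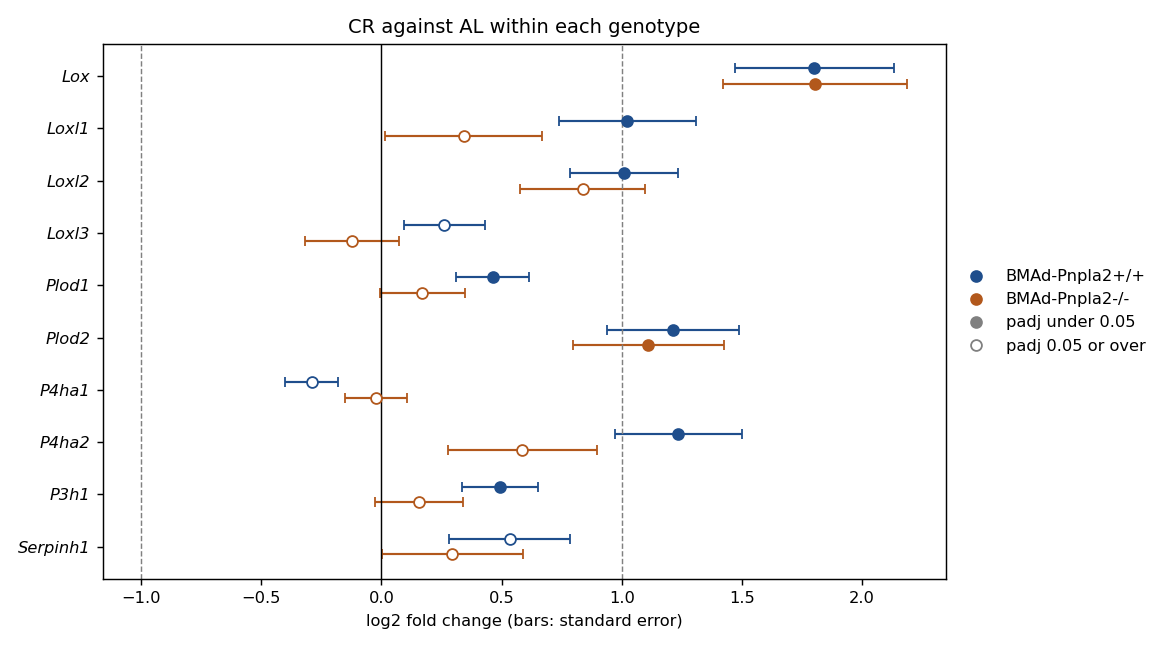
Log2 fold change of CR against AL for each member in BMAd-Pnpla2+/+ and BMAd-Pnpla2-/- mice, with the standard error as bars; filled points have padj under 0.05 and dashed lines mark an absolute log2 fold change of 1. The values of Lox are 1.80 and 1.81, those of P4ha2 are 1.24 and 0.59, and P4ha1 lies at -0.29 and -0.02.

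The interaction of genotype and diet was past both criteria for 0 of 10 members and for 0% of all genes (edgeR). At an unadjusted p under 0.05 there were 0 members, beside 10.4% of all genes. DESeq2 called 0 members, beside 0.268% of the genes it tested by padj. The interaction was below 0 for 8 members, beside 49.9% of all genes, with Lox and P4ha1 above. The smallest unadjusted p of a member was 0.133, for P4ha2, whose log2 response to CR was lower by -0.65 ± 0.41 in BMAd-Pnpla2-/- mice (padj = 0.580). Loxl1 had an interaction of -0.68 ± 0.43 (padj = 0.584), and P4ha1 of 0.27 ± 0.17 (padj = 0.583). Without BMAd-Pnpla2+/+ CR replicate 4, the unadjusted p was under 0.05 for 4 members, P3h1 (padj = 0.206), Loxl3 (padj = 0.231), Loxl1 (padj = 0.280) and P4ha2 (padj = 0.300), all with a smaller response in BMAd-Pnpla2-/- mice, beside 16.6% of all genes in that fit of edgeR. None of them passed after adjustment. The BMAd-Pnpla2-/- CR libraries enter all of these values, so that library type stands with them.

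The genotypes were then compared within each diet. Under AL, 0 of 10 members passed both criteria, as did 0% of all genes (edgeR). At an unadjusted p under 0.05 there were 0 members and 3.97% of all genes. DESeq2 called 0 members, beside 0.0731% of the genes it tested by padj. The log2 differences, BMAd-Pnpla2-/- over BMAd-Pnpla2+/+, ranged from -0.53 ± 0.35 for Lox to 0.15 ± 0.30 for Plod2. They were below 0 in 8 members, beside 52.1% of all genes, and the genotypes overlapped in all 10.

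Under CR, 0 of 10 members passed both criteria, beside 0.0114% of all genes (edgeR), and DESeq2 called 0 of them past both criteria and P3h1 by padj alone (padj = 0.0474), where DESeq2 called 10.3% of the genes it tested by padj and 6.24% as lower. The log2 fold changes were below 0 in 8 members, beside 51.3% of all genes, and the median was -0.50 for the members and -0.01 for all genes. At an unadjusted p under 0.05, 5 members were lower in BMAd-Pnpla2-/- mice, beside 11.4% of all genes lower. They were Loxl1 (log2 fold change -0.78 ± 0.31; padj = 0.163), P4ha2 (-0.63 ± 0.28; padj = 0.201), Loxl3 (-0.50 ± 0.18; padj = 0.139), P3h1 (-0.50 ± 0.17; padj = 0.120) and Plod1 (-0.46 ± 0.17; padj = 0.132). Of the others, Lox stood at -0.53 ± 0.35 (padj = 0.381), Serpinh1 at -0.52 ± 0.28 (padj = 0.274) and Loxl2 at -0.25 ± 0.24 (padj = 0.555). Plod2 (0.05 ± 0.29; padj = 0.938) and P4ha1 (0.18 ± 0.12; padj = 0.375) lay above 0. The genotypes overlapped in all 10 members.

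**Figure D4:**
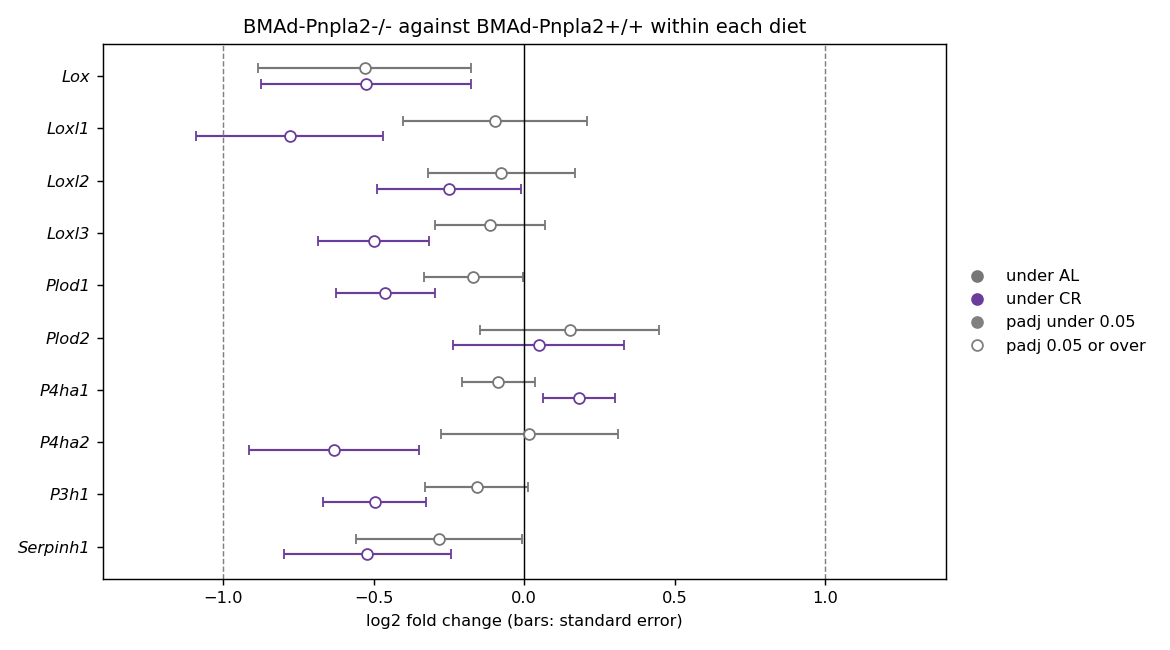
Log2 difference between genotypes (BMAd-Pnpla2-/- over BMAd-Pnpla2+/+) for each member under AL and under CR, with the standard error as bars; open points have padj of 0.05 or over and dashed lines mark an absolute log2 fold change of 1. All points are open, from -0.53 to 0.15 under AL and from -0.78 to 0.18 under CR.

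A single library moved the genotype comparison under CR. BMAd-Pnpla2+/+ CR replicate 4 was the lowest of its group for 10 of 10 members, and replicate 2 was the highest for 9 of 10, Lox being the exception. The share of all genes with such an order was not counted, so these ranks do not set the members apart. Leaving out replicate 4 took the genes with padj under 0.05 from 3 to 2092 among all tested (edgeR). Without replicate 4, 5 members were lower in BMAd-Pnpla2-/- mice at padj under 0.05, namely P3h1 (log2 fold change -0.65; padj = 0.0170), Loxl3 (-0.66; padj = 0.0213), Plod1 (-0.56; padj = 0.0386), Serpinh1 (-0.73; padj = 0.0413) and Loxl1 (-0.97; padj = 0.0419), beside 5.45% of all genes lower. In BMAd-Pnpla2-/- AL, replicate 2 was the highest of its group for 10 of 10 members, again without a count over all genes.

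The same libraries stood at the ends for marker genes of collagen-making and neighbouring cells. The summed CPM of 7 marrow stromal cell markers was lowest in replicate 4 (5119) and highest in replicate 2 (9332) of the BMAd-Pnpla2+/+ CR group, against 4365 to 5416 in BMAd-Pnpla2+/+ AL samples. Its defining markers Lepr and Cxcl12 were present in all samples, at no less than 136 and 3840 CPM. The sums of 8 adipocyte, 6 osteoblast and osteocyte, 3 chondrocyte, 5 endothelial and 5 smooth muscle markers were likewise lowest in replicate 4 and highest in replicate 2 of that group. So were those of 4 macrophage markers (783 and 1217) and 3 scarce tendon markers (1.12 and 1.94). The sum of 4 erythroid markers was highest in replicate 4 (43585) and lowest in replicate 2 (8528). Sums of neutrophil, megakaryocyte, B cell precursor and skeletal muscle markers had neither order at both ends. Cxcl12 alone, at 4518 to 8239 CPM in that group, made up most of the stromal sum. The chondrocyte sum was nearly all Comp (64.6 to 314 CPM), with Matn1 and Sox9 at no more than 0.267 and 1.02 CPM. In BMAd-Pnpla2-/- AL, the stromal sum of replicate 2 was 7076, and the other samples had 4302 and 4705. The part of these cell types in the values of the members was not tested.

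**Figure D5:**
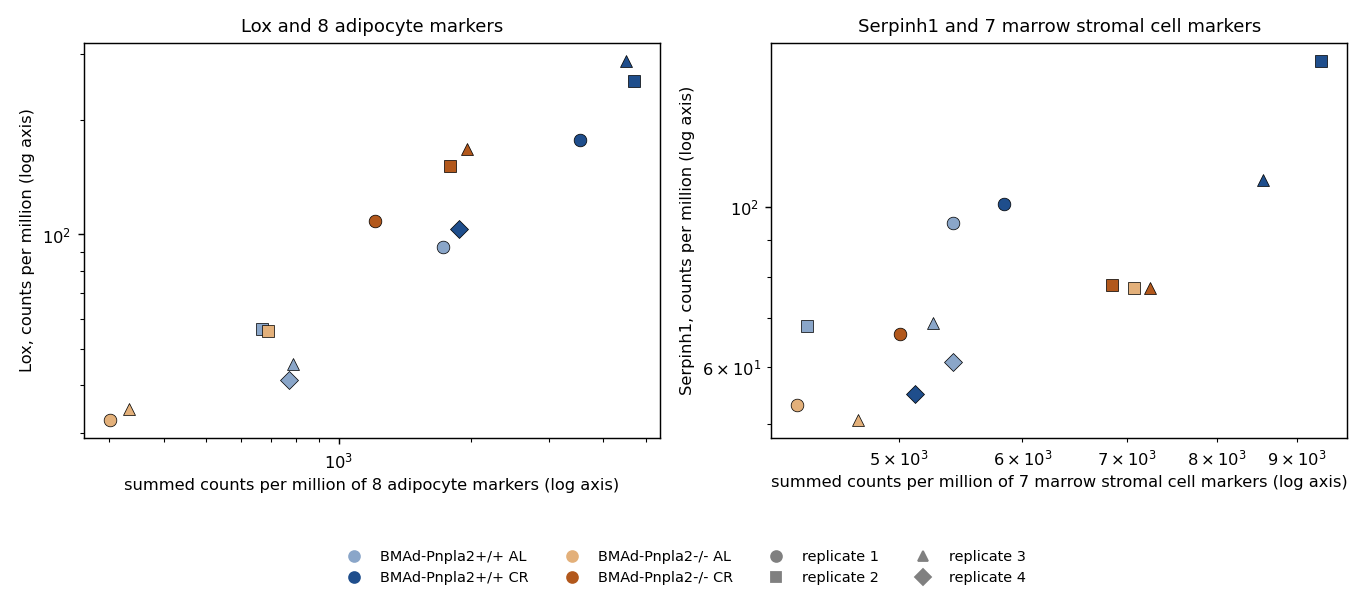
Lox against the summed CPM of 8 adipocyte markers, and Serpinh1 against the summed CPM of 7 marrow stromal cell markers, 1 point per sample, both axes logarithmic. BMAd-Pnpla2+/+ CR replicate 4, with 1881 for adipocyte markers and 103 for Lox, lies beside BMAd-Pnpla2+/+ AL replicate 1, with 1728 and 92.9.

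Adipocyte markers moved with diet as well. The plugs are labelled bone marrow adipose tissue, and the defining adipocyte markers Adipoq, in whose gene the Cre lies in all of these mice, and Plin1 were present in every sample, Adipoq at 7.61 to 227 CPM. The adipocyte sum ran from 669 to 1728 CPM in BMAd-Pnpla2+/+ AL, 1881 to 4687 in BMAd-Pnpla2+/+ CR, 302 to 689 in BMAd-Pnpla2-/- AL and 1208 to 1960 in BMAd-Pnpla2-/- CR samples, and 7 of 8 markers were higher with CR past both criteria in each genotype. By genotype, all 8 were lower in BMAd-Pnpla2-/- mice under each diet, with a median log2 fold change of -1.41 under AL and -1.04 under CR. At an unadjusted p under 0.05, 6 differed under each diet, beside 3.97% of all genes under AL and 23.2% under CR. At padj under 0.05, 0 did (edgeR). Of the other lists, 3 of 6 osteoblast and osteocyte markers and 1 of 5 endothelial markers were higher with CR past both criteria in BMAd-Pnpla2+/+ mice, and 0 of 7 stromal markers were (edgeR). The same counts in BMAd-Pnpla2-/- mice were 1 of 6, 0 of 5 and 1 of 7. By padj alone, 3 osteoblast and osteocyte, 4 endothelial and 3 stromal markers were higher in BMAd-Pnpla2+/+ mice, beside 15% of all genes higher. In BMAd-Pnpla2-/- mice 1, 0 and 1 were, beside 11.6% of all genes in either direction. All 7 stromal and 5 endothelial markers lay above 0 in BMAd-Pnpla2+/+ mice, where 49.8% of all genes lay below 0. At an unadjusted p under 0.05, 5 stromal markers in BMAd-Pnpla2+/+ and 2 endothelial markers in BMAd-Pnpla2-/- mice differed, as did 40.3% and 29.1% of all genes in these comparisons. The defining osteoblast markers were present, Ibsp at 113 to 525 CPM and Bglap at 2.80 to 19.1 CPM, and Ibsp and Bglap were among those not called.

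Blood-forming cells were followed by their markers too. B cell precursor markers fell in 5 of 5 genes in each genotype, from 84.8 to 242 CPM in BMAd-Pnpla2+/+ AL to 2.84 to 5.50 CPM in BMAd-Pnpla2+/+ CR samples. Neutrophil lineage markers, 5 genes, summed to 12193 to 15453 CPM in BMAd-Pnpla2+/+ AL and 5639 to 9448 CPM in CR samples. Of the remaining lists, 0 of 2 tested chondrocyte, 0 of 5 smooth muscle, 0 of 4 skeletal muscle, 0 of 2 tendon, 0 of 5 neutrophil, 0 of 4 erythroid, 0 of 4 macrophage and 0 of 3 megakaryocyte markers passed both criteria with CR in either genotype (edgeR), and by padj alone in BMAd-Pnpla2+/+ mice 1 macrophage marker was higher and 2 megakaryocyte and 4 neutrophil markers lower. Skeletal muscle markers summed to 10.03, 35.0 and 115 CPM in the BMAd-Pnpla2-/- CR samples and to at most 26.3 CPM elsewhere. Of their defining genes, Acta1 was present in every sample, at 0.192 to 5.03 CPM in BMAd-Pnpla2+/+ AL and 1.07 to 41.7 CPM in BMAd-Pnpla2-/- CR. Ckm was at 0 in 1 or more BMAd-Pnpla2+/+ AL samples and at 0.320 to 6.26 CPM in BMAd-Pnpla2-/- CR.

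Fibrillar collagens are the main substrates of these enzymes. Of 10 fibrillar collagen genes tested, 5 were higher with CR past both criteria in BMAd-Pnpla2+/+ mice, Col1a1 (log2 fold change 1.92 ± 0.61; padj = 0.0353), Col3a1 (1.46 ± 0.40; padj = 0.0212), Col1a2 (1.45 ± 0.40; padj = 0.0210), Col5a3 (1.39 ± 0.39; padj = 0.0239) and Col5a2 (1.05 ± 0.31; padj = 0.0288). The lowest was Col11a2, at 0.61 ± 0.35 (padj = 0.208). With BMAd Pnpla2 deleted 0 of 10 passed, and 0 had an unadjusted p under 0.05 (edgeR), Col1a1 standing at 1.14 ± 0.69 (padj = 0.293), Col1a2 at 0.95 ± 0.46 (padj = 0.187) and Col3a1 at 0.92 ± 0.46 (padj = 0.206). The medians of the list were 1.42 with and 0.85 without Pnpla2 in BMAds, and all 10 genes lay above 0 in each genotype. The interaction of genotype and diet had an unadjusted p under 0.05 for 0 of 10 (edgeR), beside 10.4% of all genes. A difference between the genotypes' responses was thus not shown for these collagens.

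Col1a1 varied widely between replicates, from 495 to 3066 CPM in BMAd-Pnpla2+/+ CR and from 137 to 736 CPM in BMAd-Pnpla2+/+ AL samples. Set against Col1a1 in the same sample, Lox had nearly the same mean in both diets in BMAd-Pnpla2+/+ mice, a log2 ratio of -2.66 ± 0.69 (SD, n = 4) in AL and -2.67 ± 1.29 (n = 4) in CR. That ratio in BMAd-Pnpla2-/- mice was -3.30 ± 0.23 (n = 3) in AL and -2.65 ± 0.65 (n = 3) in CR, and the groups overlapped in both genotypes. P4ha1 lay at the other end, with -3.96 ± 0.99 in AL and -6.02 ± 1.29 in CR in BMAd-Pnpla2+/+ mice, again overlapping. Serpinh1 went from -2.30 ± 0.89 to -3.61 ± 1.04, overlapping too. The ratio was lower in every CR than in every AL sample for 0 of 10 members in BMAd-Pnpla2+/+ mice, beside 4.4% of all genes, and for 6 in BMAd-Pnpla2-/- mice, beside 59% of all genes. These 6 were Loxl1, Loxl3, Plod1, P3h1, P4ha1 (-4.18 ± 0.40 in AL and -5.39 ± 0.52 in CR, n = 3 each) and Serpinh1 (-2.72 ± 0.34 and -3.58 ± 0.49).

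Genes that work beside the members were counted by list. Their counts at an unadjusted p stand beside the same 40.3% and 29.1% of all genes, and counts lower at padj under 0.05 beside 10.9% with and 5.57% without Pnpla2 in BMAds. Of 13 other collagen-modifying and folding factors tested, 1 was higher past both criteria in BMAd-Pnpla2+/+ mice, the peptidyl-prolyl isomerase Fkbp10 (log2 fold change 1.09 ± 0.25; padj = 0.0103), which takes part in telopeptide hydroxylation. At padj under 0.05, 5 were higher and 1 lower, the latter the galactosyltransferase Colgalt1 (-0.50 ± 0.14; padj = 0.0207), the lowest of the list. BMAd-Pnpla2-/- mice had 0 of 13 past both criteria (edgeR), 4 at an unadjusted p under 0.05. Ppib, which could not be followed across library types, is among these 13. Of 10 genes of procollagen export and propeptide removal, 0 passed both criteria in either genotype (edgeR; 6 and 3 at an unadjusted p under 0.05) and 2 were higher at padj under 0.05 in BMAd-Pnpla2+/+ mice, with Adamts3 the lowest (-0.18 ± 0.17; padj = 0.423). Of 6 genes of lysyl oxidase maturation and copper supply, the matricellular protein Postn was higher past both criteria in BMAd-Pnpla2+/+ mice (1.92 ± 0.43; padj = 0.00864) and 0 were in BMAd-Pnpla2-/- mice (edgeR; 2 at an unadjusted p under 0.05). The copper chaperone Atox1 was the lowest (-0.08 ± 0.12, padj = 0.644). For the interaction of genotype and diet, 0 genes of these 3 lists had padj under 0.05 (edgeR). An unadjusted p under 0.05 was found for 2 of the 13, 2 of the 10 and 0 of the 6, beside 10.4% of all genes there.

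Elastic fibre genes, further substrates and partners of lysyl oxidases, were higher past both criteria in 3 of 7 tested in BMAd-Pnpla2+/+ mice, namely Eln (log2 fold change 1.33 ± 0.32; padj = 0.0130), Fbn2 (1.29 ± 0.40; padj = 0.0331) and Fbn1 (1.19 ± 0.29; padj = 0.0135). Emilin1 was lower at padj under 0.05 (-0.46 ± 0.15; padj = 0.0388). With BMAd Pnpla2 deleted 0 of 7 passed both criteria (edgeR, 1 at an unadjusted p under 0.05), and Eln stood at 0.70 ± 0.37 (padj = 0.235). The interaction had an unadjusted p under 0.05 for 0 of 7 (edgeR), beside 10.4% of all genes.

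Lox, P4ha1, P4ha2 and Plod2 are known targets of hypoxia-inducible factors, and other targets were read beside them. Of 10 such genes tested, Adm (log2 fold change 1.47 ± 0.27, padj = 0.00403) and Bnip3 (1.41 ± 0.27, padj = 0.00490) were higher past both criteria in BMAd-Pnpla2+/+ mice, and 0 were lower (edgeR). At padj under 0.05, 3 were higher and 2 lower, beside 15% and 10.9% of all genes, and the list's median was 0.10. The lowest was Ankrd37 (-0.72 ± 0.43; padj = 0.219). In BMAd-Pnpla2-/- mice Bnip3, named after its value was seen, passed both criteria (1.44 ± 0.32; padj = 0.0169).

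General chaperones of the endoplasmic reticulum, which fold many proteins besides collagen, lay below 0. All 9 tested had a log2 fold change below 0 with CR in BMAd-Pnpla2+/+ mice, beside 49.8% of all genes, 5 of them at padj under 0.05 and 0 past both criteria (edgeR; 7 at an unadjusted p under 0.05). The lowest was Sdf2l1, at -0.56 ± 0.13 (padj = 0.0104). In BMAd-Pnpla2-/- mice 3 of 9 were lower at padj under 0.05, and the list's median was -0.26, beside -0.32 in BMAd-Pnpla2+/+ mice.

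For 3 members the genes of nearest pattern were sought among the 12916 genes averaging 50 counts or more, by the root mean square difference of log2 CPM centred on each gene's mean over the 14 samples. Nearest to Lox were Fzd4 (0.16), Aldh6a1 (0.19) and Smoc1 (0.20), whereas the nearest other member, Loxl2, was at 0.54 and the spread of Lox itself was 1.03. Nearest to Serpinh1 were Ubtd2 and Fkbp9 (both 0.14) and Ier5l (0.15), followed among members by P3h1 (0.18), with a spread of 0.44. P4ha1 barely varied, with a spread of 0.16, and its nearest genes Stx7, Tor1aip1 (both 0.11) and Rac1 (0.12) stood below Loxl3, its nearest other member, at 0.32.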

How the data were processed

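Per the labels, the authors flushed marrow plugs from distal tibiae and had stranded libraries sequenced as read pairs of 100 bases. The authors checked reads with FastQC 0.11.9, used STAR on mm10, and deposited raw counts per gene for each sample, in 3 strand settings, and a matrix of raw counts of 23441 genes that holds reverse-strand counts for 11 samples and unstranded counts for 3. The authors' own tests used DESeq2. Here the unstranded counts of the matrix genes were used.

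edgeR 4.0.16 (R 4.3.3) scaled libraries by TMM and kept 17494 genes with filterByExpr. Its robust quasi-likelihood test was run in a single model of 4 groups, two-sided, with Benjamini-Hochberg adjustment within each comparison. A gene passed both criteria with padj under 0.05 and a log2 fold change beyond 1 in size. The standard error was the log2 fold change over the square root of F. Exon lengths and coordinates came from GENCODE M21 (mm10), and promoter windows from RefSeq (GRCm38.p6), in which 5 of 10 members had an entry. Patterns were compared on log2 CPM with a prior count of 2. On simulated counts, 196 of 17193 genes were changed in the BMAd-Pnpla2+/+ CR group, some up and some down, those raised by a mean log2 fold change of 1.52. In CR against AL, 80.6% of them were found with 13 false calls. In the data themselves 26.0% of genes had padj under 0.05 there, and members other than Lox changed by less than 1.52. The rate found does not carry over to them.

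The members, gene lists and tests were chosen with earlier results of these data known. Named were Pnpla2, all 10 members, Col1a1, Col1a2, Col3a1, of each pathway list the genes past both criteria with CR in BMAd-Pnpla2+/+ mice (at most 5) and the gene with the lowest log2 fold change, of marker lists the first 2 genes as defining markers, and the 3 nearest genes of Lox, P4ha1 and Serpinh1. Crtap, Ppib, P4hb and P4ha3, partners or relatives of members, were added outside that rule. Replicates are separate pools of mice, and p-values measure the spread between them. Same-numbered samples did not deviate together (r over 0.1 in 7 of 19 pairs), so replicate numbers were not used as pairs.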

Additional observations from a re-analysis of the deposited data

Results flagged for a closer look

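In the BMAd-Pnpla2+/+ groups, which have 4 samples each, the highest or lowest sample of a gene was set against the rest by the gap to its neighbour over the whole range, with Dixon's 95% critical value as the limit. Of 22 such groups, 3 exceeded it, and chance alone exceeds it in about 1 of 20. Plod1 in BMAd-Pnpla2+/+ AL replicate 1 was at 80.9 CPM, above the other 3 samples, with a ratio of 0.889. Plod2 in BMAd-Pnpla2+/+ CR replicate 4 was at 7.92 CPM, below the other 3, with a ratio of 0.887. P4ha1 in BMAd-Pnpla2+/+ CR replicate 2 was at 20.2 CPM, above the other 3, with a ratio of 0.866. No difference between the genotypes' responses to CR passed the test for a member with all libraries, the smallest padj of the interaction being 0.580.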

How the results depend on the processing

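No called log2 fold change of a member changed sign under the alternatives run. Over the alternatives other than leaving out a library, 398 of 410 values stayed on their side of the threshold, 4 were no longer past it and 8 came to pass it. When each library was left out in turn, 657 of 700 stayed, 30 were no longer past it and 13 came to pass it. Of members past both criteria with CR, BMAd-Pnpla2+/+ mice had 5 and kept 3 with the deposited matrix as it stands and 3 with the replicate block, where Loxl1 and Loxl2 were not past both criteria; the block changed no count past both criteria in another comparison. With it, members with padj under 0.05 for CR in BMAd-Pnpla2-/- mice went from 2 to 3 (Loxl2, padj = 0.0412), and those with an unadjusted p under 0.05 from 0 to 2 for genotype under AL and from 5 to 7 under CR. The matching shares of all genes were 10.3%, 5.32% and 26.0% with the block and 11.6%, 3.97% and 23.2% without it. BMAd-Pnpla2-/- mice had 2 and 1 with only the groups compared in the fit. Leaving out libraries gave 3 to 5 members in BMAd-Pnpla2+/+ mice, 0 to 3 in BMAd-Pnpla2-/- mice, and 0 to 0 for both genotype comparisons and the interaction. Among all genes, 1041 to 2238 and 124 to 772 passed both criteria with CR in these fits. For genotype, 0 passed under AL and 0 to 410 under CR. With padj alone, the ranges of the members were 4 to 9, 0 to 3, 0 to 0 under AL, 0 to 5 under CR and 0 to 0 for the interaction. Of all genes, 12.7% to 34.2% and 1.38% to 13.8% had padj under 0.05 with CR. For genotype these shares were 0% under AL and 0% to 12.0% under CR, and for the interaction 0%. Over all genes, the deposited matrix gave 1056 genes past both criteria for genotype under CR, where the unstranded counts gave 2. DESeq2 on the unstranded counts gave 119. For the interaction the deposited matrix gave 484, where the unstranded counts gave 0. The edgeR fits of the matrix and of the unstranded counts differed only in the counts put in. The matrix holds reverse-strand counts for 11 libraries and unstranded counts for the 3 BMAd-Pnpla2-/- CR libraries. Why DESeq2 gave more genes than edgeR was not tested.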
